A study of Mus musculus with 24 samples.

Results

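The callosal and corticothalamic classes of neocortical projection neuron were compared at postnatal day 21 (P21), the weaning age of the mouse. Genes were taken from a table of FPKM values (fragments scaled by transcript length and by library size), and a gene was kept when it reached at least 10 FPKM in either class at P21. Rows whose symbols begin with Mir, Snor, SNOR, or AC or AL and digits, most of them short RNAs or clone-named transcripts (118 rows), and predicted genes listed at 0 throughout 1 class (26 rows) were left out. These steps left 8010 of the 9767 rows. Of the remaining rows, 1613 stayed under the minimum. The gene that entered at the lowest level was Vps54, with 10.0 FPKM in the callosal class and 7.95 FPKM in the corticothalamic class. The gene that missed it most narrowly was Ankrd49, at 9.996 and 6.38 FPKM.

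The callosal neurons came from Cux2-CreERT2:Ai14 mice (Cux2 CPN) and the corticothalamic neurons from Tle4-2A-CreERT2:Ai14 mice (Tle4 CThPN), all labelled as C57BL/6. In both lines the tamoxifen-dependent recombinase CreERT2, expressed from the locus of Cux2 or of Tle4, removes a stop cassette from the Ai14 reporter, so that recombined cells and their descendants make the red protein tdTomato. All animals of both classes were exposed to 4-hydroxytamoxifen in utero, so that the treatment is shared by the groups and there was no untreated control. At P21 the somatosensory and motor cortex was dissociated with papain, tdTomato-positive cells were sorted, and their RNA was sequenced as 2 libraries a class, each from a pool of animals of both sexes. The deposited table gives 1 value for each class and age over its 2 libraries. Values are therefore printed without an error, and no difference was tested. The methods of the study report that the Cux2 line also marks some interneurons. They describe a single-cell check of sorted cells, in which few cells carried interneuron transcripts. The authors conclude from it that such contamination affected their results only minimally.

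Callosal projection neurons of the upper cortical layers send their axons across the corpus callosum to the other hemisphere. Corticothalamic neurons of layer 6 project to the thalamus and send feedback to the nuclei from which the cortex receives sensory input. Their identities are set during development by transcription factors that in part repress each other's programmes, and by P21 both classes are wired into circuits and have acquired most of their adult electrical and synaptic properties.

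Levels are given in FPKM, and differences as log2(FPKM + 1) in Cux2 CPN minus that in Tle4 CThPN. This scale understates the difference of a gene that is near 0 in either class. A limit of 1.5 on this scale was used. Its size was taken from the fold limit of the study, which was set on another quantity and together with a false discovery rate. The FPKM of all listed rows summed to 4049900 in Cux2 CPN and to 592001 in Tle4 CThPN. Rows left out by their symbols carried 2244430 FPKM of the sum in Cux2 CPN, beside 9238 FPKM for Tle4 CThPN. Among the kept rows, the predicted gene Gm12563, which has 102 annotated bases, alone carried 1120570 FPKM in Cux2 CPN against 116 FPKM in Tle4 CThPN, and the mitochondrial serine tRNA mt-Ts1 carried 77539 FPKM in Cux2 CPN and is listed at 0 in Tle4 CThPN. Without Gm12563 and mt-Ts1 the kept genes summed to 599092 and 574356 FPKM. The part that these short transcripts have in the other values was not tested.

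At P21, 281 of the 8010 genes (3.51%) were higher in Cux2 CPN by at least the limit and 269 (3.36%) were higher in Tle4 CThPN. The other 7460 genes (93.1%) lay within the limit. The median difference was 0.08, with quartiles of -0.18 and 0.34, so that the bulk of the genes stood near equal levels. A difference of at least 3 was found for 67 genes in favour of Cux2 CPN and for 72 in favour of Tle4 CThPN. Under 1 FPKM in Tle4 CThPN with at least 10 FPKM in Cux2 CPN were 27 genes, and 41 genes showed the opposite. Of the genes past the limit, 503 are annotated as protein coding by a single entry, and 11 have annotated exons of up to 300 nt.

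**Figure D1:**
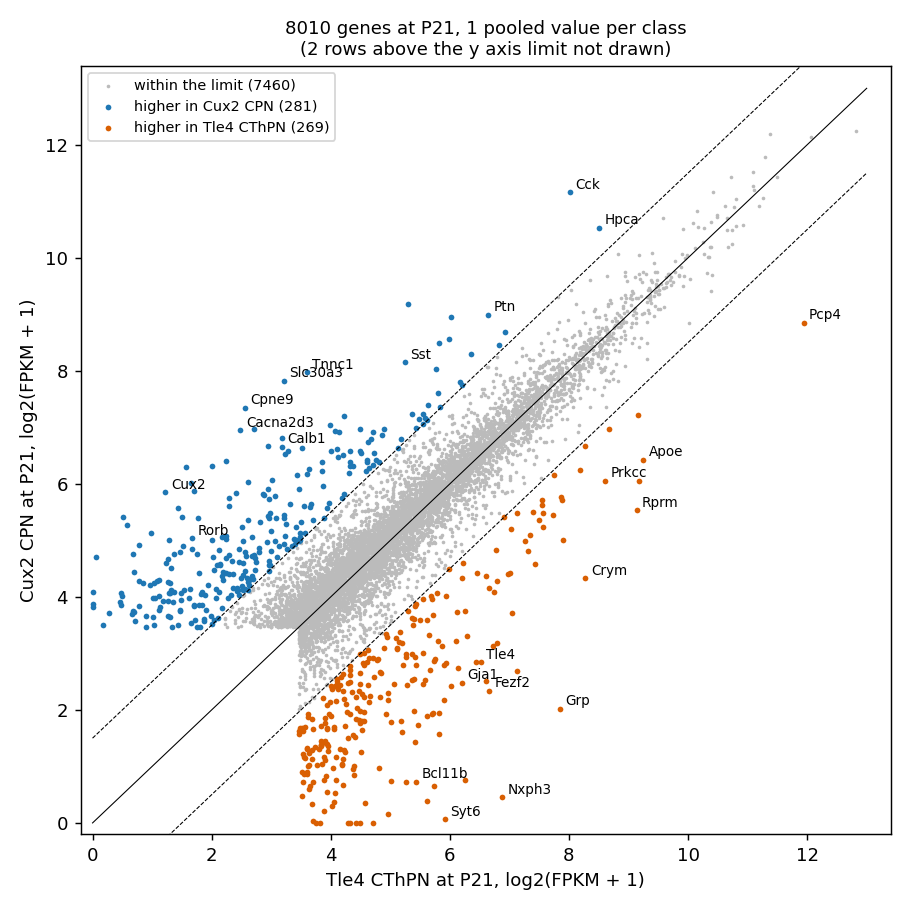
Level of each of the 8010 genes at P21 in Tle4 CThPN (x axis) and Cux2 CPN (y axis), both as log2(FPKM + 1), with equality (solid line) and the limit of 1.5 in each direction (dashed lines). The 281 blue points are higher in Cux2 CPN, the 269 orange points are higher in Tle4 CThPN, and the grey points crowd around the line of equality. 2 short transcripts above the y axis are not drawn.

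The genes that drive the recombinase were each higher in their own class. Cux2, a homeodomain factor of upper layer neurons, was at 56.8 FPKM in Cux2 CPN against 1.34 FPKM in Tle4 CThPN, a difference of 4.63. Tle4, a Groucho-family corepressor (chr19:14522562-14672473 of NCBIM37, minus strand), was at 6.18 FPKM in Cux2 CPN against 90.6 FPKM in Tle4 CThPN, a difference of -3.67. The class labels and the levels of these genes thus pointed the same way at P21.

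Transcription factors with known roles in callosal neurons were all at least as high in Cux2 CPN. Of the 10 genes of this list that reached the minimum, 6 were higher in Cux2 CPN by the limit, 0 were higher in Tle4 CThPN, beside 3.51% and 3.36% of all genes, and the median difference was 2.37, beside 0.08. Besides Cux2 these were the related homeodomain factor Cux1 (97.3 against 16.2 FPKM), the retinoid-related orphan receptors Rorb (31.8 against 2.2 FPKM) and Rora (42.2 against 6.71 FPKM), the POU factor Pou3f1 (17.5 against 0.952 FPKM) and the LIM-homeodomain factor Lhx2 (20.8 against 3.59 FPKM). Rorb, best known from layer 4, is not specific to callosal neurons. Within the limit but higher in Cux2 CPN stood Mef2c (303 against 110 FPKM), Lmo4 (234 against 128 FPKM) and Bhlhe22 (17.6 against 9.99 FPKM). Pou3f2 (5.97 against 1.74 FPKM) and Pou3f3 (7.43 against 6.08 FPKM) did not reach the minimum.

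Of the 10 transcription factors of the corticothalamic and deep layer list, 8 were higher in Tle4 CThPN by the limit and 1 was higher in Cux2 CPN, beside 3.36% and 3.51% of all genes, with a median of -3.06. The zinc finger factor Bcl11b, known for subcerebral projection neurons, was at 0.660 FPKM in Cux2 CPN against 42.4 FPKM in Tle4 CThPN. The forkhead factor Foxp2 was at 0.649 and 37.4 FPKM, and the zinc finger factor Fezf2, which specifies deep layer fates, was at 4.06 and 100.2 FPKM. All 3 thus stood under 5 FPKM in Cux2 CPN. The nuclear factor I proteins Nfia (0.591 against 17.5 FPKM) and Nfib (11.8 against 51.8 FPKM), the GATA cofactor Zfpm2 (2.59 against 20.5 FPKM) and the SOX factor Sox5 (19.1 against 72.4 FPKM) pointed the same way, as did Tle4 itself. Tbr1, a T-box factor that sets layer 6 identity, was at 54.4 FPKM in Cux2 CPN against 93.2 FPKM in Tle4 CThPN, within the limit. The exception in direction was the nuclear receptor Nr2f1, at 31.1 FPKM in Cux2 CPN against 10.2 FPKM in Tle4 CThPN, a difference of 1.52 that lies just past the limit. After scaling by median ratios the difference of Nr2f1 was 1.44, within the limit, and 0 genes of the list were higher in Cux2 CPN.

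**Figure D2:**
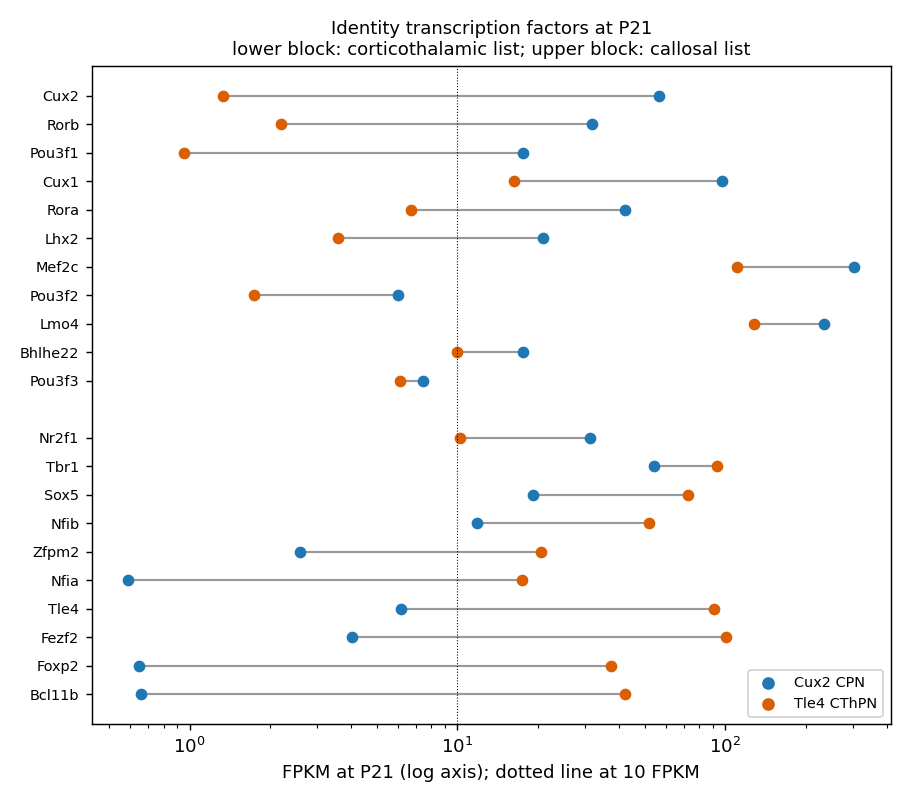
Level in FPKM (log axis) of transcription factors of the callosal list (upper block) and of the corticothalamic list (lower block) at P21 in Cux2 CPN (blue) and Tle4 CThPN (orange), with the minimum of 10 FPKM dotted. In the upper block every blue point drawn lies to the right of its orange partner, and in the lower block Nr2f1 is the gene whose order is turned.

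Markers of cortical layers separated the classes further, and their counts stand beside 3.51% of all genes higher in Cux2 CPN and 3.36% in Tle4 CThPN. Of the 9 callosal upper layer markers at the minimum, 8 were higher in Cux2 CPN (median 2.97), among them the calcium buffer Calb1 (99.8 against 8.04 FPKM), the semaphorin receptor Plxnd1 (18.3 against 1.13 FPKM), the activin subunit Inhba (12.3 against 0.618 FPKM) and the exchange factor Rasgrf2 (55.9 against 6.24 FPKM). Of the 9 layer 6 corticothalamic markers, 8 were higher in Tle4 CThPN (median -3.61). Rprm, a cell cycle inhibitor used as a layer 6 marker, was at 45.2 FPKM in Cux2 CPN against 562 FPKM in Tle4 CThPN. Grik3 (0.791 against 20.0 FPKM), the heparan sulfate sulfotransferase Hs3st4 (8.97 against 49.1 FPKM) and Garnl3 (42.4 against 211 FPKM) followed. Ntsr1, whose promoter is widely used to mark corticothalamic neurons, was at 2.86 and 5.60 FPKM and did not reach the minimum.

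Markers of neighbouring layers were also unequal, beside the same 3.51% and 3.36% of all genes. All 3 layer 4 markers of the table were higher in Cux2 CPN: Rspo1, Rorb and Whrn (25.2 against 3.08 FPKM). Of the 6 layer 5 markers, 5 were higher in Tle4 CThPN, namely Tshz2 (0.121 against 30.3 FPKM), Bcl11b, the thyroid hormone binding protein Crym (19.1 against 309 FPKM), the ETS factor Etv1 (8.11 against 109 FPKM) and the calmodulin-binding peptide Pcp4 (459 against 3927 FPKM). Layer 6 neurons also express several of these genes. The layer 6b markers Ctgf (2.04 against 35.7 FPKM) and Cplx3 (0.820 against 11.1 FPKM) were higher in Tle4 CThPN, and Nr4a2 was at 4.36 and 10.2 FPKM. In bulk RNA, a share of cells of a neighbouring layer and a level within each cell cannot be told apart.

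The promoters of the genes past the limit were searched for short motifs, a step that was chosen after the values had been seen. The windows were the 250 bases before each RefSeq start of the build GRCm38.p6, matched to the genes by symbol. Windows were found for 5730 of the 8010 genes compared. They were found for 188 of the 281 genes higher in Cux2 CPN and for 180 of the 269 higher in Tle4 CThPN. The shares of windows cover these genes alone. The search took the half-site AGGTCA, to which Rora, Rorb and other nuclear receptors bind, and the half-site TTGGCA of nuclear factor I, on both strands. TTGGCA stood in 13.9% of the 251 windows of genes higher in Tle4 CThPN. In the 262 windows of genes higher in Cux2 CPN the share was 8.78%. It was 9.18% in the 7627 windows found for the genes compared and 12.3% in the 32851 windows of the RefSeq table. AGGTCA stood in 11.5% of the windows of genes higher in Cux2 CPN and in 11.2% of those of genes higher in Tle4 CThPN. Its share was 9.91% in the windows found for the genes compared and 14.0% in all windows. The shares of AGGTCA in both directions thus lay close together. Windows of 1 gene can overlap, and no test was made.

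Genes without a name and windows on a chromosome that was set aside were passed over in choosing the windows to print. Of the other genes higher in Cux2 CPN whose window holds AGGTCA, the largest differences were those of Tuba8 and Hspb3. Tuba8 is an alpha-tubulin and Hspb3 a small heat shock protein. The Tuba8 window (GRCm38.p6 chr6:121210484-121210733, plus strand) holds the half-site on the opposite strand, as TGACCT, 82 bases before the start. The Hspb3 window (chr13:113663677-113663926, minus strand) holds it in sense, 173 bases before the start, and also holds the letters TATAAA 11 bases before it. The Hspb3 window further holds TGCCAA, the nuclear factor I half-site on the opposite strand, which is left in small letters. Both windows are printed in the direction of transcription with the match to AGGTCA in capitals.
Tuba8: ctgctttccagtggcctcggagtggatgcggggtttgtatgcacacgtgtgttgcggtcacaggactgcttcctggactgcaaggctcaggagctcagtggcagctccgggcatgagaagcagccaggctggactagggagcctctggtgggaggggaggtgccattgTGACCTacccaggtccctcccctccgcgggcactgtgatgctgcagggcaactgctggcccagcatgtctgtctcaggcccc
Hspb3: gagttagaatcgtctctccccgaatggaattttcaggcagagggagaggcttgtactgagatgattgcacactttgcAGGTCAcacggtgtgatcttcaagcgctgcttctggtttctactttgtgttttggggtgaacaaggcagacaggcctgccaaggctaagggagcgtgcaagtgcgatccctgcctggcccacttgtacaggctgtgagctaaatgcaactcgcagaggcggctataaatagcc

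The same genes and windows were passed over among the genes higher in Tle4 CThPN whose window holds TTGGCA. The largest differences left were those of Mgat4c, a glycosyltransferase (2.84 against 51.3 FPKM), and Gng12, a G protein gamma subunit (3.50 against 58.6 FPKM). The Mgat4c window (GRCm38.p6 chr10:102374187-102374436, plus strand) holds the half-site on the opposite strand, as TGCCAA, 63 bases before the start, and the letters TATAAA 29 bases before it. The Gng12 window (chr6:66896147-66896396, plus strand) holds it in sense, 246 bases before the start. A match describes the letters of the window and says nothing of binding.
Mgat4c: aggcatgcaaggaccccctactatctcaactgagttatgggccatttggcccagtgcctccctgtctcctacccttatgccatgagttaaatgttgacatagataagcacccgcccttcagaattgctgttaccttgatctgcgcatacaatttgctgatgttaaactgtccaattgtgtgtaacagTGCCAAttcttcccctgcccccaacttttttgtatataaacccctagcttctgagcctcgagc
Gng12: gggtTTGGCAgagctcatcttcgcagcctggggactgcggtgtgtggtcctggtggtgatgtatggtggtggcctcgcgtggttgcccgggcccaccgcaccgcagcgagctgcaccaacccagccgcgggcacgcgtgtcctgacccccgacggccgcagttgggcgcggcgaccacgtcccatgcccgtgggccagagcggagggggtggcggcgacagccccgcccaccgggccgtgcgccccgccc

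The same windows were searched for 5 more motifs on both strands, of which no motif holds the letters of another whole. The TATA box TATAAA stood in 8.02% of the windows of genes higher in Cux2 CPN. It stood in 9.16% of those of genes higher in Tle4 CThPN, beside 5.80% for the genes compared that had a window. The cAMP response element TGACGTCA stood in 1.15% and 1.2%, beside 2.95%. The SOX site ACAAAG stood in 13% and 15.5%, beside 11.3%, the forkhead site GTAAACA in 1.91% and 2.79%, beside 1.97%, and the octamer ATGCAAAT, bound by POU factors, in 1.53% and 1.59%, beside 1.05%. Over all windows of the table the shares were 12.4%, 1.55%, 16.5%, 3.17% and 1.6% in that order. The median GC content was 59.6% in both directions, 60.4% for the genes compared that had a window and 52.4% for all windows.

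Genes of the 2 directions also had annotated lengths of their own. Over protein-coding genes with 1 annotation entry, the median genomic span was 40.2 kb for the 256 genes higher in Cux2 CPN, 29.6 kb for the 247 genes higher in Tle4 CThPN and 23.4 kb for the 7686 genes compared. The median annotated exon length was 4024 nt, 3391 nt and 3666 nt in the same order.

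The 15 named genes with the largest differences in favour of Cux2 CPN, after 7 predicted or clone-named rows, ran from mt-Ts1 to Hspb3. Cpne9, a calcium-dependent membrane-binding copine (chr6:113232301-113255621 of NCBIM37, plus strand), was at 162 FPKM in Cux2 CPN against 4.90 FPKM in Tle4 CThPN. Rspo1, a secreted agonist of Wnt signalling, was at 37.4 and 0.499 FPKM. Ocm, the parvalbumin-related calcium buffer oncomodulin, was at 25 and 0.0406 FPKM. Rspo1 and Ocm were thus under 1 FPKM in Tle4 CThPN. Slc30a3 (chr5:31388479-31395988, minus strand), the transporter that loads zinc into synaptic vesicles, was at 225 and 8.29 FPKM. Cacna2d3, an auxiliary calcium channel subunit, was at 122 and 4.59 FPKM. Crhr1, the receptor for corticotropin-releasing hormone, was at 58.0 and 2.27 FPKM. The list thus held a vesicular transporter, a channel subunit and a peptide receptor beside the calcium-binding proteins. Genes better known from muscle also stood in it, namely the troponin Tnnc1 (251 against 11.1 FPKM) and the sarcomeric protein Tcap (46.6 against 1.71 FPKM), together with Hspb3 (41.6 against 1.83 FPKM). The keratin Krt12 (64.0 against 2.14 FPKM), the Nogo receptor homologue Rtn4rl1 (79.2 against 3.03 FPKM), the extracellular protein Coch (83.3 against 3.71 FPKM) and Tuba8 (29.4 against 0.727 FPKM) completed it with Cux2.

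No row was passed over among the 15 largest differences in favour of Tle4 CThPN. Nxph3, a neurexophilin that binds alpha-neurexins (chr11:95371159-95375884 of NCBIM37, minus strand), was at 0.372 FPKM in Cux2 CPN against 117 FPKM in Tle4 CThPN, a difference of -6.43. Syt6, a synaptotagmin (chr3:103379154-103449490, plus strand), was at 0.0443 and 59.2 FPKM. Grp, the gastrin-releasing peptide, was at 3.05 and 230 FPKM. Nxph3 and Syt6 were thus under 1 FPKM in Cux2 CPN. Ighm, the heavy chain constant region of immunoglobulin M, was at 0.696 and 75 FPKM. Glra2, a glycine receptor subunit on the X chromosome, was at 0.310 and 47.9 FPKM. Sla, a Src-like adaptor protein, was at 0.571 and 52.0 FPKM. Ighm, Glra2 and Sla were under 1 FPKM in Cux2 CPN as well. Trp53i11 (5.41 against 138 FPKM), Tshz2, Bcl11b, Foxp2 and Fezf2 were the other genes, together with 4 rows of short RNAs: n-R5s164, n-R5s202, snoU109 and U1, which are listed at 0 in Cux2 CPN and at 19.1 to 25.1 FPKM in Tle4 CThPN. U1 names more than 1 row of the table.

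Of 25 neuropeptides and secreted signals at the minimum, 10 (40%) were higher in Cux2 CPN by the limit and 0 in Tle4 CThPN, with a median of 0.97, beside 3.51% and 3.36% of all genes. Grp was not on the list. Cck, the neuropeptide cholecystokinin, was at 2282 FPKM in Cux2 CPN against 258 FPKM in Tle4 CThPN, and Bdnf, a neurotrophin induced by activity, was at 24.4 and 1.42 FPKM. Cbln4, a synapse organizer, was at 13.6 and 0.390 FPKM. Cck was thus among the most abundant transcripts of this group while Bdnf and Cbln4 were near the minimum. Lower differences in the same direction were found for Sst (283 against 36.8 FPKM), Adcyap1 (32.6 against 3.71 FPKM), Wnt4 (10.1 against 0.865 FPKM), C1ql3 (14.1 against 1.56 FPKM) and Penk (23.7 against 4.52 FPKM). Sst is also a marker of interneurons. Without Sst, the summed interneuron markers stood at 226 FPKM in Cux2 CPN against 160 FPKM in Tle4 CThPN. These sums include Nxph1 (6.08 against 60.0 FPKM), the only listed interneuron marker that was lower in Cux2 CPN.

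Receptors for neuromodulators and peptides stood on both sides. Of 27 genes, 8 (29.6%) were higher in Cux2 CPN and 5 (18.52%) in Tle4 CThPN, beside 3.51% and 3.36% of all genes, with a median of 0.72. Cux2 CPN had more of Crhr1, the adrenergic receptor Adra1d (16.5 against 2.11 FPKM), the histamine receptor Hrh1 (42.8 against 8.34 FPKM) and the serotonin receptor Htr2a (16.6 against 3.20 FPKM). Tle4 CThPN had more of the nicotinic receptor subunit Chrna4 (2.93 against 40.9 FPKM), the dopamine receptor Drd1a (0.462 against 14.4 FPKM), the somatostatin receptor Sstr4 (8.36 against 54.4 FPKM) and the neurotensin receptor Ntsr2 (5.36 against 27.2 FPKM), a gene that astrocytes express as well.

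Glutamate and GABA receptors differed in a few subunits, to be read against the 3.51% and 3.36% of all genes. Among 12 ionotropic glutamate receptor genes, 0 were higher in Cux2 CPN and 3 (25%) were higher in Tle4 CThPN, the kainate receptor subunits Grik3 and Grik4 (2.60 against 11.8 FPKM) and the AMPA receptor subunit Gria3 (20.6 against 86.8 FPKM). The median was -0.27. The AMPA receptor subunit Gria2 (98.7 against 117 FPKM) and the NMDA receptor subunit Grin1 (188 against 142 FPKM) lay within the limit. Among the 6 metabotropic receptors, the presynaptic receptors Grm2 (131 against 14.9 FPKM) and Grm8 (4.44 against 37.9 FPKM) differed in opposite directions, 1 gene (16.7%) each. Among the 13 GABA receptor genes, Gabra2 was higher in Cux2 CPN (32.6 against 8.36 FPKM) and Gabrg3 was higher in Tle4 CThPN (3.30 against 18.1 FPKM), 7.69% of the list in each direction. The medians of the metabotropic and GABA receptor lists, 0.04 and 0.28, stood near that of all genes.

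Of 44 potassium and HCN channel genes, 7 (15.9%) were higher in Cux2 CPN and 2 (4.55%) in Tle4 CThPN, with a median of 0.51. The latter share lay close to the 3.36% of all genes. The Kv3 subunit Kcnc2 (15.8 against 1.79 FPKM), the auxiliary subunit Kcnab3 (71.4 against 11.1 FPKM), the EAG-family channel Kcnh5 (43.8 against 6.86 FPKM) and the silent subunit Kcns1 (27.7 against 4.50 FPKM) showed the largest differences. The Kv4 accessory protein Kcnip1 (7.43 against 33.7 FPKM) and the SK channel Kcnn2 (10.3 against 40.9 FPKM) were higher in Tle4 CThPN. Among 15 sodium and calcium channel genes, the auxiliary subunits Cacna2d3 and Scn4b (2.63 against 14.0 FPKM) were past the limit in opposite directions (6.67% each, beside 3.51% and 3.36% of all genes), and the median was 0.47.

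Axon guidance genes were split almost evenly, with 7 of 36 (19.4%) higher in Cux2 CPN and 6 (16.7%) in Tle4 CThPN, beside 3.51% and 3.36% of all genes, and a median of 0.32. On the callosal side stood Plxnd1, the netrin receptor Unc5d (18 against 1.46 FPKM), the netrin-G protein Ntng1 (12.6 against 1.78 FPKM) and the repellent Slit2 (12.5 against 1.76 FPKM). On the corticothalamic side stood the semaphorins Sema3e (1.39 against 21.7 FPKM), Sema5a (1.05 against 17.2 FPKM) and Sema5b (0.859 against 10.5 FPKM) and the ephrin Efnb3 (1.64 against 14.2 FPKM). Sema3e is the ligand of Plxnd1, and ligand and receptor thus stood on opposite sides. Of 19 cadherins and protocadherins, Pcdh20 (21.8 against 1.5 FPKM) and Cdh10 (41 against 7.44 FPKM) were higher in Cux2 CPN, and Cdh9 (0.644 against 11.9 FPKM) and Cdh18 (2.97 against 21.6 FPKM) in Tle4 CThPN (10.5% in each direction, median -0.17).

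Synaptic adhesion and organizing proteins were higher in Cux2 CPN in 5 of 45 genes (11.1%, beside 3.51% of all genes) and in Tle4 CThPN in 2 (4.44%, close to the 3.36% of all genes), with a median of 0.48. Cux2 CPN had more of Cbln4, C1ql3 and the teneurin Odz4 (59.3 against 10.0 FPKM), among others. Tle4 CThPN had more of the neurexin ligands Nxph3 and Nxph1 (6.08 against 60.0 FPKM). Of 16 synaptotagmins and complexins, Syt17 was higher in Cux2 CPN (27.8 against 2.18 FPKM), and Syt6, Cplx3 and Syt10 (2.27 against 13.3 FPKM) were higher in Tle4 CThPN (6.25% and 18.8% of the list, beside 3.51% and 3.36% of all genes, median -0.30).

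The lists of calcium-binding and related proteins and of kinases contained abundant genes that differed. Of 16 genes on the first list, Calb1, the neuronal calcium sensor Hpca (1482 against 364 FPKM) and the S100-family gene S100a10 (124 against 28.8 FPKM) were higher in Cux2 CPN. Pcp4, a calmodulin-binding peptide listed with them, was higher in Tle4 CThPN, and the median was 0.00. These are 18.8% and 6.25% of the list, beside 3.51% and 3.36% of all genes. Of 20 protein kinase C and CaM kinase genes, 3 (15%) were past the limit in each direction, beside 3.51% and 3.36% of all genes (median 0.05). The CaMKII inhibitors Camk2n1 (90.2 against 17.5 FPKM) and Camk2n2 (47.2 against 11.5 FPKM) and the kinase Camk1g (61.2 against 13.6 FPKM) were higher in Cux2 CPN. Protein kinase C gamma, encoded by Prkcc (65.3 against 389 FPKM), Prkcq (1.49 against 11.1 FPKM) and Camk2d (23.1 against 73.5 FPKM) were higher in Tle4 CThPN. Of 30 genes for RGS proteins, phosphodiesterases and adenylyl cyclases, the G protein regulator Rgs3 was higher in Cux2 CPN (15.9 against 3.35 FPKM), and Pde9a (1.06 against 13.5 FPKM), Rgs16 (1.58 against 13.3 FPKM) and Rgs9 (2.07 against 10.6 FPKM) in Tle4 CThPN (median -0.17). These are 3.33% and 10% of the list, the former share no higher than the 3.51% of all genes.

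Over whole families of transcription factors, 15 of 120 genes (12.5%) were higher in Cux2 CPN and 18 (15%) in Tle4 CThPN, beside 3.51% and 3.36% of all genes, with a median of 0.16. Besides the genes named above, Cux2 CPN had more of the bHLH factor Neurod1 (11.9 against 0.592 FPKM) and of the Groucho-family corepressors Tle3 (18.1 against 1.41 FPKM) and Tle1 (31.5 against 3.72 FPKM). Tle1 and Tle3 thus stood opposite to their relative Tle4. The teashirt factors were likewise split, with Tshz1 (14.7 against 1.03 FPKM) higher in Cux2 CPN and Tshz2 higher in Tle4 CThPN. Tle4 CThPN had more of the HMG-box factor Tox2 (1.71 against 41.6 FPKM) and the TALE homeodomain factor Meis2 (22.8 against 172 FPKM). Tle1, Tle3, Tshz1, Tox2 and Meis2 lie outside the fixed rule for named genes and were chosen after their values were seen.

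Of 119 solute carriers, 5 (4.2%) were higher in Cux2 CPN, close to the 3.51% of all genes, and 9 (7.56%) in Tle4 CThPN, beside 3.36% (median -0.02). After Slc30a3, the calcium exchangers Slc24a4 (14.8 against 2.07 FPKM) and Slc24a3 (109 against 35.3 FPKM) were among those higher in Cux2 CPN. The vesicular glutamate transporter Slc17a8 was at 0.152 FPKM in Cux2 CPN against 13.7 FPKM in Tle4 CThPN. Slc12a4 (0.449 against 15.8 FPKM), the glutamate transporter Slc1a3 and Slc39a12 (0.965 against 15.5 FPKM) followed, of which Slc1a3 is a marker of astrocytes. Of 12 collagens and matrix genes, Thbs3 was higher in Cux2 CPN (14.4 against 1.79 FPKM), and Col12a1 (0.931 against 19.8 FPKM), the brevican gene Bcan (7.06 against 46.0 FPKM) and Sparc (8.77 against 29.7 FPKM) in Tle4 CThPN (8.33% and 25% of the list, median -0.39). Astrocytes also express Slc39a12, Bcan and Sparc, and the astrocyte markers, which are described further on, were lower in Cux2 CPN in 9 of 9 genes with a median of -2.65.

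Several groups showed few genes or none past the limit. The 78 cytosolic ribosomal protein genes lay between -0.43 and 0.99 with a median of 0.26, 68 of them above 0. The 3 neurofilament and intermediate filament genes were all lower in Cux2 CPN but within the limit, Nefm at 38.5 against 96.0 FPKM. The 8 glutamatergic markers were present in both classes, the vesicular glutamate transporter Slc17a7 at 1063 FPKM in Cux2 CPN against 1016 FPKM in Tle4 CThPN. Of 24 genes induced by activity or dissociation, Bdnf was higher in Cux2 CPN and the matricellular gene Cyr61 was higher in Tle4 CThPN (8.31 against 67.6 FPKM), and the median was -0.04. The share of 4.17% in each direction lay close to the 3.51% and 3.36% of all genes.

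**Figure D3:**
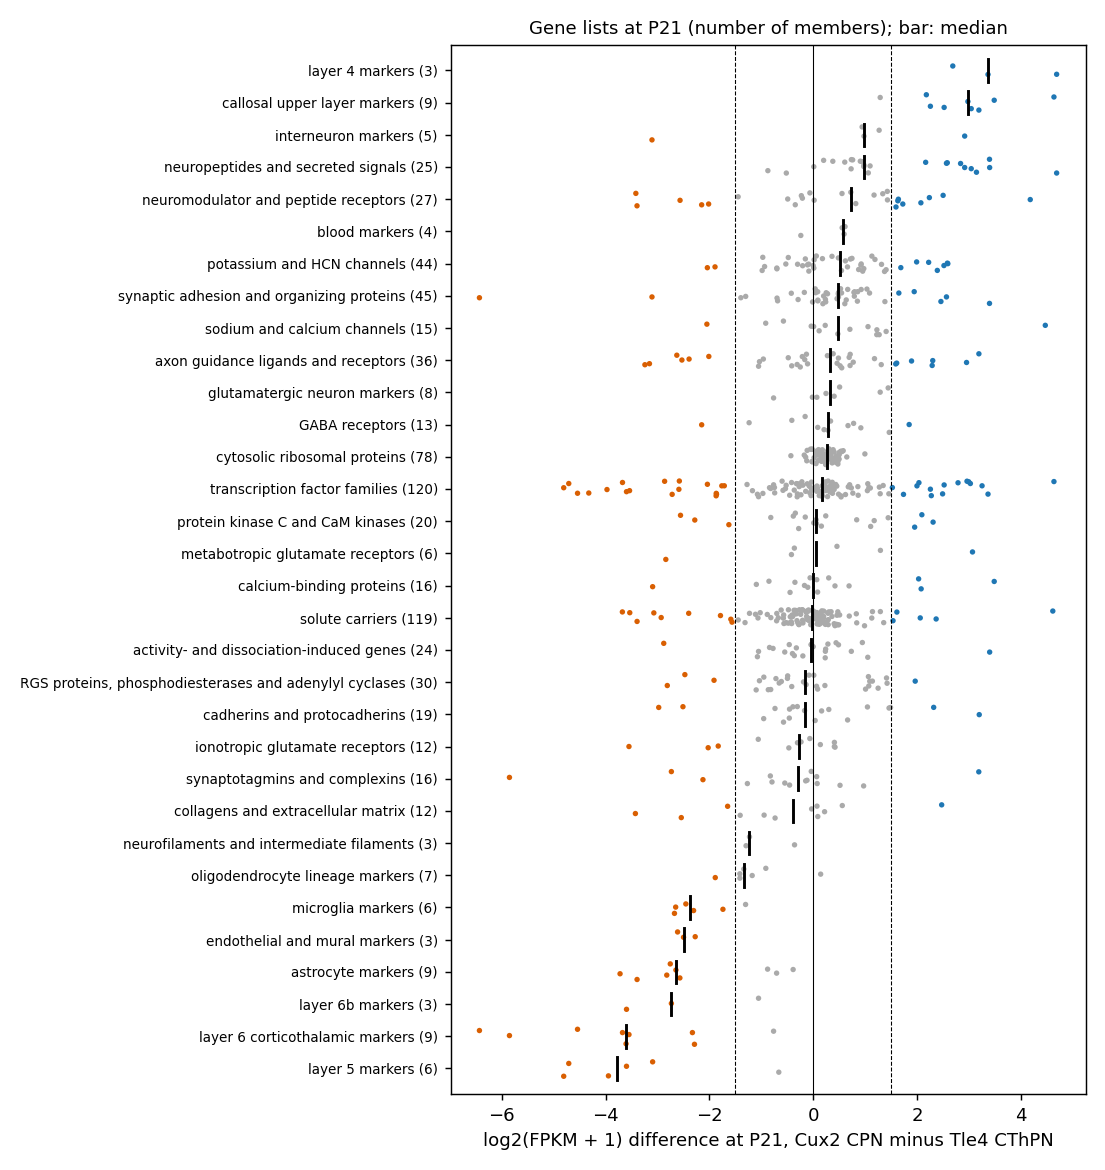
Difference of log2(FPKM + 1) at P21, Cux2 CPN minus Tle4 CThPN (x axis), for each gene of each list at the minimum (number in brackets), with the median as a black bar and the limit dashed. Blue points are higher in Cux2 CPN and orange points higher in Tle4 CThPN. The layer and glial lists stand apart from 0, and the 78 ribosomal protein genes form a narrow band.

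Markers of other cell types were unequal between the classes, beside 3.51% of all genes higher in Cux2 CPN and 3.36% in Tle4 CThPN. Of the 9 astrocyte markers in the table, all 9 were lower in Cux2 CPN and 6 passed the limit (median -2.65), and their summed level was 450 FPKM in Cux2 CPN against 1509 FPKM in Tle4 CThPN. The gap junction proteins Gja1 (4.58 against 72.6 FPKM) and Gjb6 (5.91 against 42.2 FPKM), Slc1a3 (5.72 against 69.6 FPKM), the lipoprotein Apoe (84.9 against 607 FPKM), Fgfr3 (2.50 against 22.6 FPKM) and Aldoc (20.1 against 124 FPKM) were past the limit. Clu (209 against 386 FPKM), Slc1a2 (96.9 against 159 FPKM) and Aldh1l1 (20.0 against 26.5 FPKM) were within it. Astrocyte markers were therefore detected in both classes, at higher levels in Tle4 CThPN. Of the 6 microglia markers, 5 were higher in Tle4 CThPN (median -2.38): the complement genes C1qa (1.42 against 14.5 FPKM), C1qb (2.55 against 21.3 FPKM) and C1qc (1.6 against 13.3 FPKM), Ctss (1.34 against 10.6 FPKM) and Tyrobp (2.67 against 11.3 FPKM). The 6 genes summed to 20.9 and 100.3 FPKM. The 3 endothelial markers Slco1a4 (1.00 against 11.3 FPKM), Ly6c1 (3.40 against 23.9 FPKM) and Cldn5 (2.15 against 14.2 FPKM) were all higher in Tle4 CThPN.

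Of the 7 oligodendrocyte markers, 1 was past the limit, the myelin glycoprotein Mag (6.45 against 26.6 FPKM), and the median was -1.34. Mbp (68.6 against 62.2 FPKM), Cnp (18.4 against 42.9 FPKM), Mobp (15.5 against 30.2 FPKM), Olig1 (4.92 against 14.8 FPKM) and Mog (3.18 against 10.2 FPKM) were also within it. The list summed to 161 FPKM in Cux2 CPN against 299 FPKM in Tle4 CThPN. The 4 haemoglobin genes were within the limit in both classes (median 0.57), and no fibroblast marker was listed. On the astrocyte, oligodendrocyte, microglia and endothelial lists together, 15 of 25 genes (60%) were higher in Tle4 CThPN and 0 in Cux2 CPN, beside 3.36% and 3.51% of all genes, and without them 254 of the 269 genes remained. How far RNA of such cells has a part in the other genes higher in Tle4 CThPN was not tested.

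Interneuron markers were mostly higher in Cux2 CPN. The 15 listed genes in the table summed to 509 FPKM in Cux2 CPN against 197 FPKM in Tle4 CThPN. Without Sst they summed to 226 and 160 FPKM. Nxph1 (6.08 against 60.0 FPKM), which is part of both sums, was the only listed gene lower in Cux2 CPN. Of the 5 listed genes at the minimum, Sst was higher in Cux2 CPN by the limit and Nxph1 was higher in Tle4 CThPN. These are 20% of the 5 in each direction, beside 3.51% and 3.36% of all genes. Npy (145 against 73.4 FPKM), Gad1 (18.1 against 6.95 FPKM) and Vip (16.9 against 8.36 FPKM) were within the limit. Gad2 was at 8.81 and 3.72 FPKM and did not reach the minimum. The part of interneuron RNA in genes such as Sst was not tested.

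**Figure D4:**
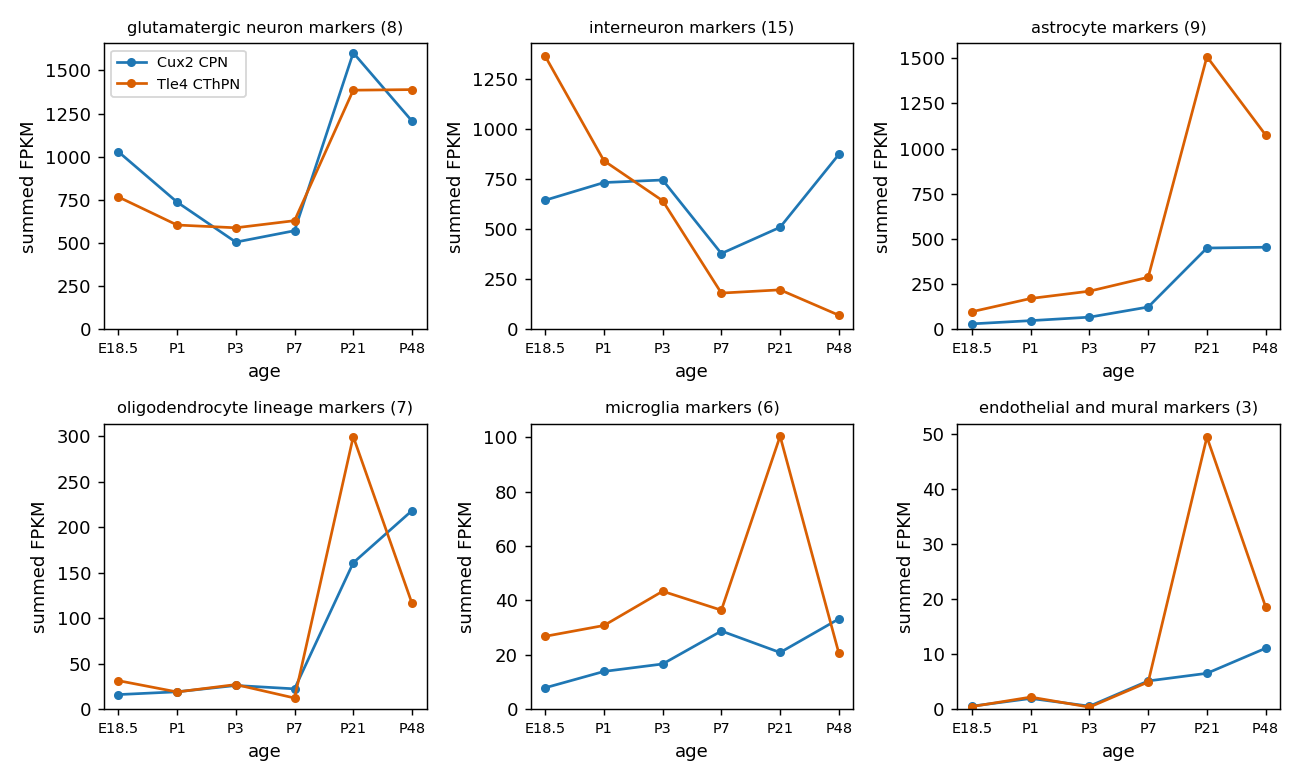
Summed FPKM (y axis) of the genes of 6 marker lists (number of genes in brackets) by age (x axis) in Cux2 CPN (blue) and Tle4 CThPN (orange), 1 pooled value per point. At P21 the astrocyte list stands at 450 and 1509 FPKM, and the microglia and endothelial lists of Tle4 CThPN peak at P21 and are lower at P48.

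The other ages of the series were sequenced from separate libraries, and the class differences of P21 were looked up there. Over the same 8010 genes, 3.02% were higher in Cux2 CPN by the limit at P48 and 3.20% were higher in Tle4 CThPN. At P7 the shares were 2.87% and 1.79%. Of the 281 genes higher in Cux2 CPN at P21, 208 (74.0%) were past the limit in the same direction at P48 and 112 (39.9%) at P7. Of the 269 genes higher in Tle4 CThPN, 203 (75.5%) were so at P48 and 92 (34.2%) at P7. The differences of P21 were thus listed again in larger numbers at P48 than at P7. The median difference of the genes higher in Cux2 CPN was 2.30 at P21, 2.19 at P48 and 1.05 at P7, and that of the genes higher in Tle4 CThPN was -2.47, -2.15 and -0.88. Since the genes were chosen by their P21 values, a smaller median at other ages follows in part from the choice.

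Genes past the limit at all 6 ages numbered 27 for Cux2 CPN and 41 for Tle4 CThPN. Cux2 and Hspb3 were among the callosal genes, Hspb3 at 21.4 FPKM against 1.71 FPKM already at E18.5. Among the corticothalamic genes were Nxph3, Syt6, Bcl11b, Foxp2 and Fezf2. Bcl11b was at 23.3 FPKM in Cux2 CPN against 76.9 FPKM in Tle4 CThPN at E18.5, at 6.04 and 29.8 FPKM at P7, and at 0.768 and 42.6 FPKM at P48. The difference of Bcl11b at P21 thus came with a low level in Cux2 CPN.

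Differences that were past the limit at P21 and P48 and at no age up to P7 were found for 101 genes in favour of Cux2 CPN and for 104 in favour of Tle4 CThPN. Tnnc1 was at 0.722 FPKM in Cux2 CPN against 0.818 FPKM in Tle4 CThPN at P7, at 251 and 11.1 FPKM at P21, and at 116 and 5.34 FPKM at P48. Rspo1 was at 0.572 and 0.426 FPKM at P7 and at 73.5 and 1.30 FPKM at P48. The carbonic anhydrase Car4, which was chosen after its values were seen, was at 1.31 and 0.701 FPKM at P7, at 111 and 8.10 FPKM at P21 and at 97.7 and 2.81 FPKM at P48. Tnnc1, Rspo1 and Car4 were thus under 2 FPKM in both classes at P7. Cck was at 333 FPKM in Cux2 CPN against 289 FPKM in Tle4 CThPN at P7, so that a difference appeared at P21 between classes that had stood close.

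The late differences of the corticothalamic side took another form for some genes. Ighm was at 0.393 FPKM in Cux2 CPN against 0.255 FPKM in Tle4 CThPN at P7 and at 0.684 and 235 FPKM at P48. Sla was at 128 FPKM in Cux2 CPN against 144 FPKM in Tle4 CThPN at P7, at 0.571 and 52.0 FPKM at P21, and at 0.485 and 41.5 FPKM at P48. Sla was therefore lower in both classes at P21 than at P7, and in Cux2 CPN it was close to absent. Crhr1 showed the reverse order, at 45.6 FPKM in Cux2 CPN against 17.6 FPKM in Tle4 CThPN at P7 and at 2.27 FPKM in Tle4 CThPN at P21. Gja1, an astrocyte marker, was among the late differences, at 0.931 and 3.76 FPKM at P7 and at 6.05 and 53.6 FPKM at P48.

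**Figure D5:**
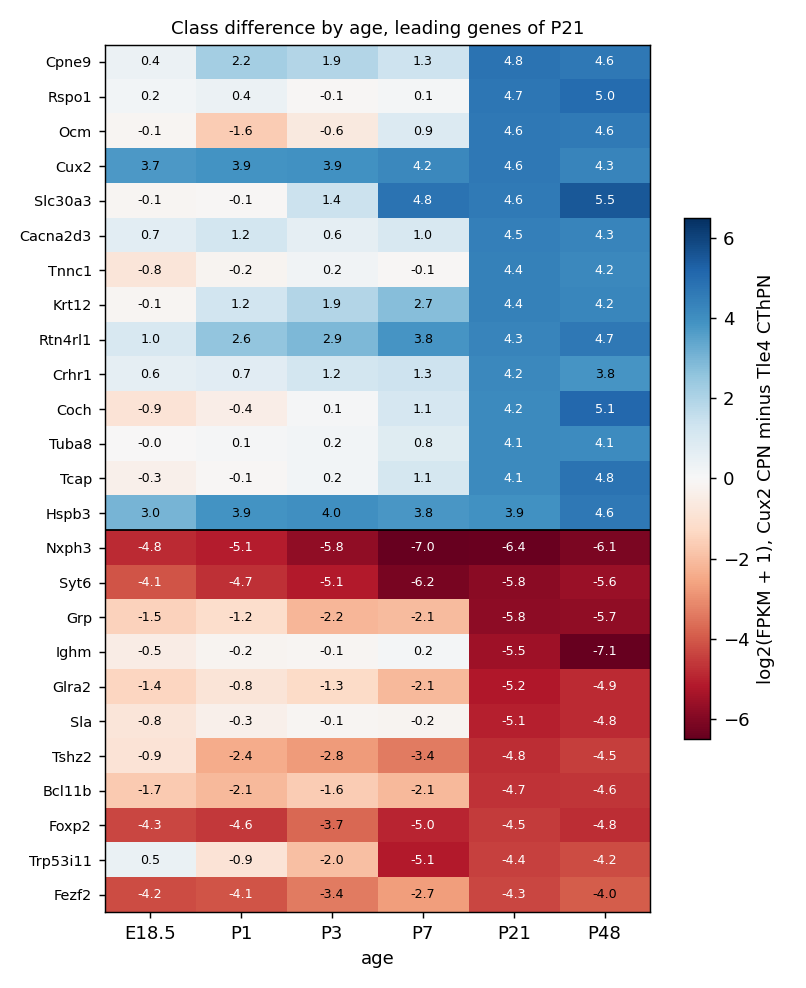
Difference of log2(FPKM + 1), Cux2 CPN minus Tle4 CThPN, at 6 ages (columns) for the leading named genes of P21 (rows) without short RNAs, with the value in each cell. Above the line, Cux2 and Hspb3 are blue at every age, and most other rows turn blue at P21. Below it, Nxph3, Syt6, Foxp2 and Fezf2 are red throughout, and Ighm and Sla turn red at P21.

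At P21 but at no other age, 53 genes were higher in Cux2 CPN by the limit and 41 were higher in Tle4 CThPN. After U1, the largest such differences on the callosal side were those of Ccdc3 (26.6 against 1.77 FPKM), the BMP antagonist Nbl1 (36.6 against 4.68 FPKM), the sortilin-family receptor Sorcs3 (16.4 against 1.91 FPKM) and the cell cycle factor E2f6 (120 against 25.2 FPKM). At P48 all 4 were still higher in Cux2 CPN, with differences of 1.29, 1.25, 1.21 and 1.37. On the corticothalamic side they were the selenoprotein Sepp1 (5.51 against 50.0 FPKM), C1qa, Slco1a4, Cmtm5 (2.27 against 17.9 FPKM) and Ly6c1. C1qa, Slco1a4 and Ly6c1 are markers of microglia or vessels, and those lists were at their highest in Tle4 CThPN at P21. Microglia markers summed to 36.4 FPKM in Tle4 CThPN at P7 and to 20.7 FPKM at P48, beside 100.3 FPKM at P21, and endothelial markers to 5.0 and 18.6 FPKM, beside 49.4 FPKM.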

How the data were processed

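RNA-seq was performed by the authors on sorted Cux2 CPN and Tle4 CThPN at 6 ages, as 2 libraries for each of the 12 groups. Reads were trimmed with Trimmomatic, aligned to NCBIM37 (mm9) with TopHat2, and the deposited FPKM values, 1 per gene and group over both libraries, were computed with Cuffdiff. Short transcripts can gain very high FPKM from few fragments. The methods of the study give a lower bound for the reads of each library. Read numbers are not kept in FPKM, so that the reads behind a value and its counting error are unknown.

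From the deposited FPKM, log2(FPKM + 1) differences were computed in Python 3.11.15 with numpy 2.4.6 and pandas 2.3.3, and figures were drawn with matplotlib 3.10.9. A limit of 1.5 and a minimum of 10 FPKM were used. The genes and lists were chosen with earlier results of these data known. Named were Cux2 and Tle4, the 15 largest differences in each direction with a gene symbol, up to 4 genes of each list in each direction, all class-identity transcription factors, markers of other cells at the minimum, 5 genes in each direction that differed at P21 alone, genes that turned direction at P7 or P48, and those nearest the minimum. The 4 haemoglobin genes are given as a group, and the values of some genes of the lists are not reported here. Genes outside these rules are examples chosen after their values were seen. Positions come from the GENCODE annotation of NCBIM37, in which 7870 of the 8010 genes had 1 entry, and promoter windows from RefSeq. A pseudocount of 0.1, median-ratio scaling, minimums of 0 and 30 FPKM, limits of 1 and 2 and the removal of genes of up to 300 nt were the alternatives. Other data types of the study were not analysed here.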

Additional observations from a re-analysis of the deposited data

Results flagged for a closer look

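In 6 cases the class difference of P21 was past the limit in one direction and past it in the other direction at a neighbouring age. With 1 pooled value a group, these turns of direction were not tested. Nxph1, a neurexin ligand that interneurons express, was at 51.5 FPKM in Cux2 CPN against 9.45 FPKM in Tle4 CThPN at P7 (a difference of 2.33) and at 6.08 and 60.0 FPKM at P21 (-3.11). It stayed lower in Cux2 CPN at P48, at 9.57 and 47.2 FPKM.

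Plcxd3, a phospholipase-like protein, was at 18.1 and 3.37 FPKM at P7 (2.13) and at 2.81 and 29.5 FPKM at P21 (-3.0). The GABA receptor subunit Gabrg3 was at 11.5 and 3.12 FPKM at P7 (1.6) and at 3.30 and 18.1 FPKM at P21 (-2.15). In both genes the level in Cux2 CPN was lower, and that in Tle4 CThPN higher, at P21 than at P7. Nos1ap, an adaptor of neuronal nitric oxide synthase, was at 43.3 and 14.7 FPKM at P7 (1.5) and at 51.3 and 185 FPKM at P21 (-1.83). The adrenergic receptor Adra2c turned the other way, from 0.381 and 3.06 FPKM at P7 (-1.56) to 10.1 and 2.38 FPKM at P21 (1.72). A row of the small nuclear RNA U1 differed by 3.82 at P21 and by -1.72 at P48.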

How the results depend on the processing

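No paired analysis was possible because the table gives 1 value per group, so that neither a replicate block nor leaving out a library could be run. Of 132 named genes, 0 changed sign under a pseudocount of 0.1 or median-ratio scaling. This count was fixed in advance. A pseudocount keeps the sign, and the scaling moved differences by up to about 0.08, less than the difference of any named gene. Under the pseudocount of 0.1, 5 named genes that are near 0 in either class moved by over 1.5 times: Ocm from 4.64 to 7.48, Slc17a8 from -3.68 to -5.78, n-R5s164 from -4.71 to -7.98, n-R5s202 from -4.49 to -7.75 and snoU109 from -4.42 to -7.68. Syt6, at -8.68, then stood ahead of Nxph3, at -7.95. Under median-ratio scaling, 1 named gene crossed the limit, Nr2f1 at 1.44. Of 48 counts by list, 3 moved by over 1.5 times. Oligodendrocyte markers higher in Tle4 CThPN became 3 and cadherins higher in Cux2 CPN became 4 under the pseudocount of 0.1, and corticothalamic transcription factors higher in Cux2 CPN became 0 under median-ratio scaling.

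The 281 genes higher in Cux2 CPN became 138 with a minimum of 30 FPKM, 512 with a limit of 1 and 185 with a limit of 2. The 269 genes higher in Tle4 CThPN became 119 with a minimum of 30 FPKM and 423 with a limit of 1. The median difference was -0.000188 after median-ratio scaling, which centres it by construction, 0.0684 with a minimum of 30 FPKM and 0.0659 with none. The 411 genes past the limit at P21 and P48 became 203 with a minimum of 30 FPKM, 685 with a limit of 1 and 276 with a limit of 2. The 204 past it at P21 and P7 became 116, 380 and 114. The stricter minimum compares fewer genes. The other counts stayed within 1.5 times. The reads behind each value are unknown, so that genes near 0 carry an unknown counting error.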
